A study of Bos taurus with 22 samples.

Results

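The 6 genes C18H19orf48, URB2, AEN, DOT1L, SLC7A1 and DUSP4, were described in subcutaneous backfat of 22 steers, out of 24616 genes counted. They were chosen by their lower levels in efficient than in inefficient Kinsella Composite steers, among the genes that the study listed as differentially expressed (DE) in that breed. Therefore, the difference between the feed efficiency groups of that breed is given below as a description, with no test. The study measured residual feed intake, corrected for how thick the backfat was (RFIfat, in kg), as the feed an animal eats beyond what its growth and maintenance require, so that a high value (H-RFI) marks an inefficient and a low value (L-RFI) an efficient steer. RNA-Seq was performed on backfat of 8 Angus (ANG), 6 Charolais (CHAR) and 8 Kinsella Composite (KC) animals, split evenly between the H-RFI and the L-RFI group. RFIfat ranged from 0.75 to 1.64 kg in ANG H-RFI, from 0.69 to 1.10 kg in CHAR H-RFI and from 0.54 to 2.03 kg in KC H-RFI steers, and from -1.13 to -0.75 kg, -1.03 to -0.96 kg and -1.77 to -0.80 kg in the L-RFI steers of the same breeds. The labels describe KC as a Hereford by Angus crossbred, while the methods of the study describe matings of Angus, Charolais or composite bulls to a composite dam line, so KC was not a breed unrelated to the others. All steers ate the same barley-based finishing diet, and the fat was taken at slaughter. The labels gave neither the age nor the birth year of a steer, although the animals were born in more than 1 year.

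The nucleolus is the part of the nucleus where ribosomal RNA is made and ribosomes are assembled, and its activity follows the demand for cell growth. Amino acid supply and growth factor signals acting through the MAP kinases raise that activity, and the p53 pathway responds when it is disturbed. In fat, both adipocytes and the vascular, immune and stromal cells around them use this machinery. The roles known for the 6 genes differ, and not all of them lie in the nucleolus. URB2 encodes a nucleolar protein of ribosome biogenesis, AEN a nuclear and nucleolar exonuclease induced by p53, DOT1L a histone methyltransferase that accompanies transcription elongation, SLC7A1 a transporter of cationic amino acids, and DUSP4 a nuclear phosphatase that inactivates MAP kinases. C18H19orf48 is a protein-coding gene of which little is known.

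The libraries held 8033008 to 12426133 reads on genes, and every one of the 6 genes had a level above 1 CPM (counts scaled to the library total) in all 22 steers, with 17 to 1648 counts per steer. Levels are given below as CPM with library sizes adjusted by the trimmed mean of M values (TMM CPM), which compares steers for 1 gene but not genes with each other, because it is not divided by gene length. The libraries of 6 steers, F8, F10, F14, F18, F25 and F28, stood apart from the others in the share of uniquely aligned reads that were ambiguous between genes, at 0.303 to 0.512%, against 0.938 to 2.16% in the other 16. The labels did not explain this. In the bulk tissue, fewer cells of a type and less RNA per cell cannot be told apart.

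In KC steers all 6 genes were lower in every L-RFI than in every H-RFI steer. The log2 fold change (log2FC) of L-RFI over H-RFI ranged from -1.07 for SLC7A1 to -2.28 for DUSP4, with a median of -1.43. This is what chose the genes. For comparison, 757 of 13725 genes tested in KC were lower in L-RFI without overlap between the groups (5.52%), and 76 of them (0.554%) had a log2FC of -1 or less. KC H-RFI steers had the highest group mean of all 6 groups for each of the 6 genes, a place that the choice of the genes favours. The share of all genes with KC H-RFI highest was not counted, so nothing is read from this. Of the 14 ANG and CHAR steers, 8 to 12 were below the highest KC L-RFI steer, depending on the gene, and 1 (URB2) to 6 were below the lowest. The KC L-RFI steers, too, entered the choice of the genes, and no share of all genes was counted, so this is a description only.

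**Figure D1:**
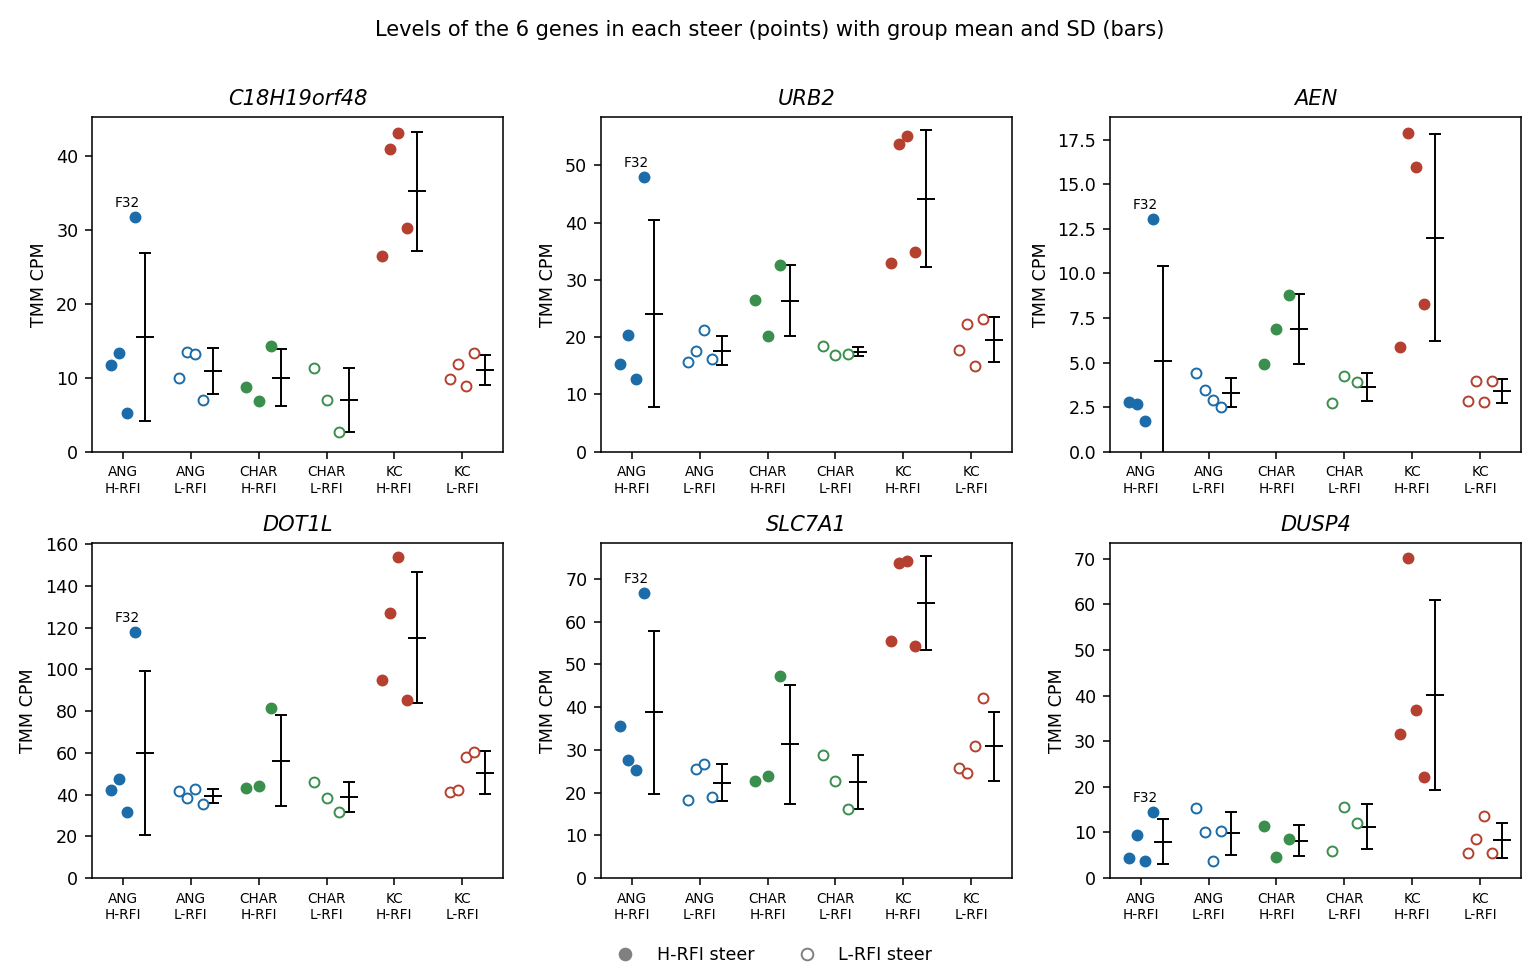
TMM CPM of each gene (vertical axes, starting at 0) in each of the 22 steers (points, filled for H-RFI and open for L-RFI) by breed and RFI group, with the group mean and SD beside them as bars, the lower bar of AEN in ANG H-RFI being drawn to 0 only. The 4 KC H-RFI steers lie above the 4 KC L-RFI steers in every panel, and the ANG H-RFI steer F32 lies within the KC H-RFI range for 5 genes, all but DUSP4.

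C18H19orf48 (ENSBTAG00000011079) had the values of 26.5, 41.0, 43.2 and 30.3 TMM CPM in the KC H-RFI steers F1, F7, F8 and F9. The KC L-RFI steers F10, F11, F14 and F16 had 9.88, 11.9, 8.88 and 13.4. The lowest H-RFI steer was therefore above the highest L-RFI steer, with means of 35.2 ± 8.10 and 11.01 ± 2.03 (SD, n = 4 each) and a log2FC of -1.68 (standard error, SE, 0.20). In ANG, H-RFI steers F20, F21, F28 and F32 had 11.7, 13.3, 5.28 and 31.8, and L-RFI steers F18, F23, F24 and F25 had 10.01, 13.5, 13.2 and 7.02. F32 was thus the highest of these 8 steers, the other 7 being at 13.5 or below. CHAR H-RFI steers F36, F43 and F48 had 8.80, 6.89 and 14.4, and L-RFI steers F33, F46 and F47 had 11.3, 7.06 and 2.71. The groups overlapped in both breeds, with a log2FC of -0.52 in ANG (SE 0.46, adjusted p = 0.996) and -0.50 in CHAR (SE 0.48, adjusted p = 0.981). In the RefSeq annotation this gene overlaps 4 small nucleolar RNA (snoRNA) genes, and reads from both kinds of gene were not told apart here.

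URB2 (ENSBTAG00000010180) was at 33.0, 53.7, 55.2 and 34.8 TMM CPM in KC H-RFI steers, in the same order of steers, and at 17.7, 22.4, 15.0 and 23.2 in KC L-RFI steers. Group means were 44.2 ± 11.9 and 19.6 ± 3.92 (SD, n = 4 each), a log2FC of -1.17 (SE 0.21). Values of 15.4, 20.3, 12.7 and 48.1 were measured in ANG H-RFI and of 15.6, 17.6, 21.3 and 16.2 in ANG L-RFI steers. F20 and F28 were below the ANG L-RFI range and F21 was inside it, while F32 was the highest steer of the breed. In CHAR, the H-RFI steers had 26.5, 20.2 and 32.5 and the L-RFI steers 18.4, 16.9 and 17.1, so that the groups did not overlap. The log2FC was -0.46 in ANG (SE 0.37, adjusted p = 0.996) and -0.59 in CHAR (SE 0.18, unadjusted p = 0.0125, adjusted p = 0.947).

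AEN (ENSBTAG00000017632) had the lowest counts of the 6 genes, 17 to 206 per steer. TMM CPM were 5.88, 17.9, 15.98 and 8.29 in KC H-RFI and 2.82, 3.95, 2.80 and 3.97 in KC L-RFI steers. The H-RFI group varied more than the L-RFI group, with means of 12.01 ± 5.82 and 3.39 ± 0.66 (SD, n = 4 each) and a log2FC of -1.82 (SE 0.36). ANG H-RFI steers had 2.79, 2.67, 1.73 and 13.1, and ANG L-RFI steers had 4.41, 3.48, 2.89 and 2.49. F20, F21 and F28 were each below at least 3 of the 4 ANG L-RFI steers, and F32 was above all of them. The CHAR groups were again apart, at 4.93, 6.89 and 8.81 in H-RFI and 2.76, 4.27 and 3.91 in L-RFI steers. The log2FC was -0.62 in ANG (SE 0.59, adjusted p = 0.996) and -0.91 in CHAR (SE 0.30, unadjusted p = 0.0172, adjusted p = 0.947).

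DOT1L (ENSBTAG00000009996) was at 94.8, 127, 154 and 85.6 TMM CPM in KC H-RFI and at 41.0, 42.3, 58.3 and 60.5 in KC L-RFI steers. The means were 115 ± 31.3 and 50.5 ± 10.3 (SD, n = 4 each), a log2FC of -1.19 (SE 0.20). ANG H-RFI steers had 42.4, 47.7, 31.8 and 118, and ANG L-RFI steers had 41.6, 38.4, 42.7 and 35.3. The L-RFI values spanned a narrow range that the H-RFI values enclosed. CHAR steers had 43.2, 44.1 and 81.5 in H-RFI and 46.1, 38.6 and 31.9 in L-RFI, where 2 of the 3 L-RFI steers were below all H-RFI steers. The log2FC was -0.61 in ANG (SE 0.35, adjusted p = 0.994) and -0.53 in CHAR (SE 0.27, adjusted p = 0.947).

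SLC7A1 (ENSBTAG00000018577) had the smallest relative spread of the 6 genes among the KC H-RFI steers, with 55.5, 73.9, 74.1 and 54.4 TMM CPM, while the KC L-RFI steers had 25.7, 24.6, 30.9 and 42.2. The means were 64.5 ± 10.99 and 30.8 ± 8.04 (SD, n = 4 each), and the log2FC of -1.07 (SE 0.19) was the closest of the 6 genes to the limit of 1 that the study used for its DE genes. In ANG, the H-RFI steers had 35.6, 27.7, 25.2 and 66.7 and the L-RFI steers 18.3, 25.5, 26.7 and 18.9. Here 2 of the 4 L-RFI steers were below all H-RFI steers, more than for any other of the 6 genes in ANG. CHAR steers had 22.7, 23.9 and 47.3 in H-RFI and 28.8, 22.7 and 16.1 in L-RFI. The log2FC was -0.80 in ANG (SE 0.30, unadjusted p = 0.0231, adjusted p = 0.940) and -0.47 in CHAR (SE 0.33, adjusted p = 0.949). In the RefSeq annotation this gene overlaps 1 long non-coding RNA gene, and the strand setting of the counting was not given in the sources used here.

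DUSP4 (ENSBTAG00000044208) had the largest KC difference and the widest relative range over the 22 steers, from 3.73 to 70.1 TMM CPM. KC H-RFI steers had 31.5, 70.1, 36.9 and 22.2 and KC L-RFI steers had 5.43, 8.56, 13.6 and 5.49. The means were 40.2 ± 20.9 and 8.28 ± 3.85 (SD, n = 4 each), a log2FC of -2.28 (SE 0.40). Unlike the other 5 genes, DUSP4 had a positive log2FC in both other breeds. ANG steers had 4.32, 9.44, 3.76 and 14.5 in H-RFI and 15.3, 10.2, 3.73 and 10.3 in L-RFI, with a log2FC of 0.30 (SE 0.48, adjusted p = 0.996). CHAR steers had 11.4, 4.56 and 8.59 in H-RFI and 5.95, 15.7 and 12.04 in L-RFI, with a log2FC of 0.45 (SE 0.42, adjusted p = 0.981). The groups overlapped in both breeds, and the sign in ANG turned to a log2FC of -0.45 without the steers with few ambiguous reads, an alternative chosen after seeing the data.

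To examine whether the 6 genes differed with RFI in steers that had not chosen them, ANG and CHAR were tested with edgeR's quasi-likelihood test over all genes. No gene was called in ANG (0% of 13613), in CHAR (0% of 13737) or in the 14 steers of both breeds with breed as a covariate (0% of 13597). A call required an adjusted p below 0.1 and an absolute log2FC of at least 1. DESeq2 called none of the 6 genes either. The study, with edgeR at the same limits, listed DE genes within ANG and within CHAR. The absence of any call therefore holds for the quasi-likelihood test used here, and why the results differ was not tested. At an unadjusted p below 0.05, SLC7A1 passed in ANG (1 of 6, against 3.14% of all genes, lower in L-RFI), URB2 and AEN in CHAR (2 of 6, against 2.21%), and URB2, DOT1L and SLC7A1 in both breeds together (3 of 6, against 2.98%). The log2FC in the 14 steers were -0.50 for C18H19orf48 (SE 0.35), -0.52 for URB2 (SE 0.24), -0.75 for AEN (SE 0.38), -0.57 for DOT1L (SE 0.25), -0.66 for SLC7A1 (SE 0.24) and 0.36 for DUSP4 (SE 0.35), with an adjusted p of 0.998 for each. Of the 6 log2FC, 5 were negative in each of these comparisons, against 50.9% of all genes in ANG, 50.6% in CHAR and 49.5% in both. The median log2FC of the 6 genes was -0.56, -0.51 and -0.54, against medians over all genes of -0.0039, -0.0031 and 0.0020. The 5 genes with a negative log2FC varied together within the ANG and CHAR groups, with Pearson's r of their pairs from 0.62 to 0.92. These counts and medians therefore do not rest on 6 independent genes, and the comparison of both breeds together uses the same steers again. None of the 6 genes had ANG groups without overlap with lower values in L-RFI (1.59% of all genes did). URB2 and AEN had such CHAR groups (4.86% of all genes did).

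Exact permutation tests (two-sided, within breed, of the difference of mean log2 TMM CPM) in the 14 ANG and CHAR steers gave p = 0.0371 for SLC7A1, 0.11 for DOT1L, 0.121 for URB2, 0.183 for AEN, 0.314 for C18H19orf48 and 0.327 for DUSP4, without adjustment for the 6 genes. The smallest p this design allows is 0.0014. In CHAR alone, URB2 and AEN reached the smallest p that 3 steers against 3 can give, 0.1, so no exact test could pass 0.05 there. The ANG values depended on F32. Without it, the ANG log2FC became 0.12 for C18H19orf48, 0.13 for URB2 and 0.48 for AEN, and moved to -0.04 for DOT1L and -0.40 for SLC7A1. So 3 of the 5 negative values in ANG changed sign without a single steer, and SLC7A1 in ANG did not pass an unadjusted p of 0.05 without F32, without F18 or without F25. In both breeds together, the log2FC without F32 was -0.17 for C18H19orf48, -0.22 for URB2 (unadjusted p = 0.204), -0.23 for AEN, -0.27 for DOT1L (unadjusted p = 0.128), -0.43 for SLC7A1 (unadjusted p = 0.0400) and 0.61 for DUSP4. SLC7A1 alone passed an unadjusted p of 0.05 there, and it did so in each of the 14 fits that left out 1 steer. URB2 and DOT1L both failed it also without F23, F25, F46, F47 or F48, and URB2 without F18, F33 or F36. The CHAR values depended on single steers as well. Without F48, the CHAR log2FC was -0.15 for C18H19orf48, -0.16 for DOT1L and -0.04 for SLC7A1, and without F47 it was -0.12 for C18H19orf48. AEN in CHAR did not pass an unadjusted p of 0.05 without F33 (unadjusted p = 0.0579) or without F48 (unadjusted p = 0.0647), whereas URB2 passed it without each of the 6 steers.

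**Figure D2:**
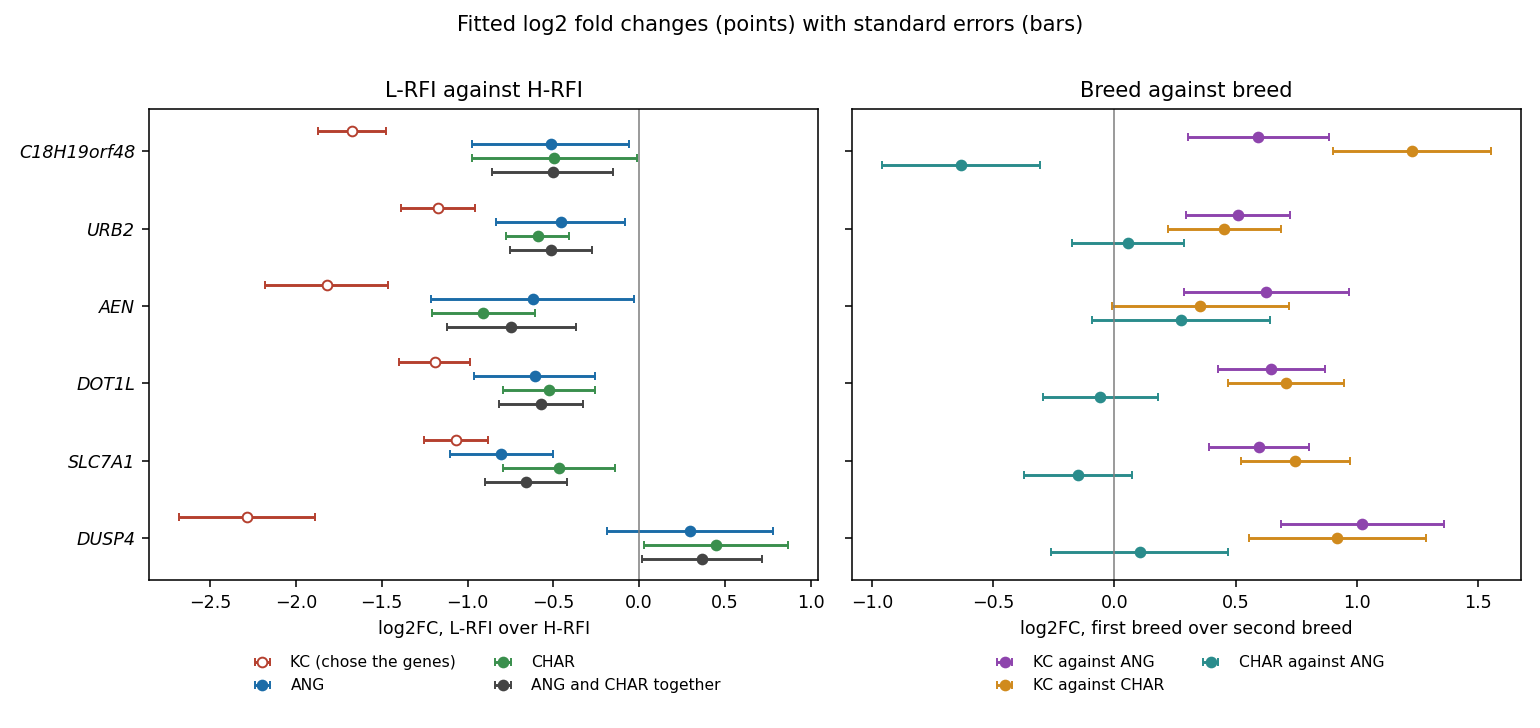
Log2FC (points, horizontal axes) and SE (bars) of the 6 genes for L-RFI over H-RFI within breeds (left, with KC as open points because this difference chose the genes) and for breed against breed (right). In the left panel the ANG, CHAR and combined values of 5 genes lie between -0.91 and -0.46, nearer to 0 than the KC values, and those of DUSP4 between 0.30 and 0.45, while in the right panel both KC contrasts are above 0 for each gene.

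The breeds were then compared over the mean of their RFI groups in a fit of all 22 steers. The KC mean contains the H-RFI steers on which the genes were chosen, so its differences from ANG and CHAR are given as a description. The log2FC of KC over ANG was 0.59 for C18H19orf48 (SE 0.29), 0.51 for URB2 (SE 0.21), 0.63 for AEN (SE 0.34), 0.65 for DOT1L (SE 0.22), 0.60 for SLC7A1 (SE 0.21) and 1.02 for DUSP4 (SE 0.34). Over CHAR the largest was that of C18H19orf48, at 1.23 (SE 0.33), followed by DUSP4 at 0.92 (SE 0.37), SLC7A1 at 0.75 (SE 0.22), DOT1L at 0.71 (SE 0.24), URB2 at 0.45 (SE 0.23) and AEN at 0.35 (SE 0.37). Of the 6 genes, 0 were called against ANG (0.338% of 13606 genes were) and 1, C18H19orf48, against CHAR (1.48% were), and nothing is read from these counts because the KC H-RFI steers enter both. The contrast of CHAR and ANG does not use the KC group means, although the KC steers share the fit and its estimate of the spread. It gave no call among the 6 (0.213% of all genes were called). Its log2FC ran from -0.63 for C18H19orf48 to 0.27 for AEN, with adjusted p from 0.397 to 0.946. These values, too, moved without F32. The log2FC of CHAR over ANG was then -0.32 for C18H19orf48, 0.35 for URB2, 0.82 for AEN (SE 0.26, adjusted p = 0.140), 0.22 for DOT1L, 0.05 for SLC7A1 and 0.34 for DUSP4, and the signs of DOT1L and SLC7A1 had turned.

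Ordered by mean level, KC H-RFI stood first for each gene, a place that the choice of the genes favours. It was separate from the next group for URB2 and DUSP4, while it overlapped the next group for the other 4 genes. All later neighbours in the order overlapped for all 6 genes. The overlap at the top came from F32 for C18H19orf48, DOT1L and SLC7A1, in which it was the only one of the 14 ANG and CHAR steers above the lowest KC H-RFI steer. For URB2, it was again the only such steer (48.1 TMM CPM against 33.0), although the group next in mean was CHAR H-RFI. For AEN, F32, F48 and F43 lay above the lowest KC H-RFI steer. None of the 14 did for DUSP4, whose highest values outside KC H-RFI were 15.7 in F46 and 15.3 in F18, both L-RFI steers.

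F32, an Angus H-RFI steer with an RFIfat of 0.75 kg, and F48, a Charolais H-RFI steer with 0.72 kg, were the highest and the next highest of the 14 ANG and CHAR steers for C18H19orf48, URB2, AEN, DOT1L and SLC7A1. The deviation of F32 from its group mean was 1.28, 1.18, 1.69, 1.16 and 0.89 on the log2 scale for these genes and 1.01 for DUSP4, the largest positive deviation of all 22 steers for each. F28, of the same group, had the largest negative deviation for the 5 genes, from -1.20 for C18H19orf48 to -0.50 for SLC7A1, so the ANG H-RFI group held both ends. The library of F32 did not stand out in depth (10274742 reads), in the share of unique reads on genes (38.9%) or in that of ambiguous reads (1.27%), whereas F28 was among the steers with few ambiguous reads (0.406%). Among KC H-RFI steers, F7 and F8 were above F1 and F9 for all 6 genes. Their RFIfat of 0.54 and 1.62 kg did not lie on 1 side of the 0.94 and 2.03 kg of F1 and F9, so the order of the levels was not the order of RFIfat.

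**Figure D3:**
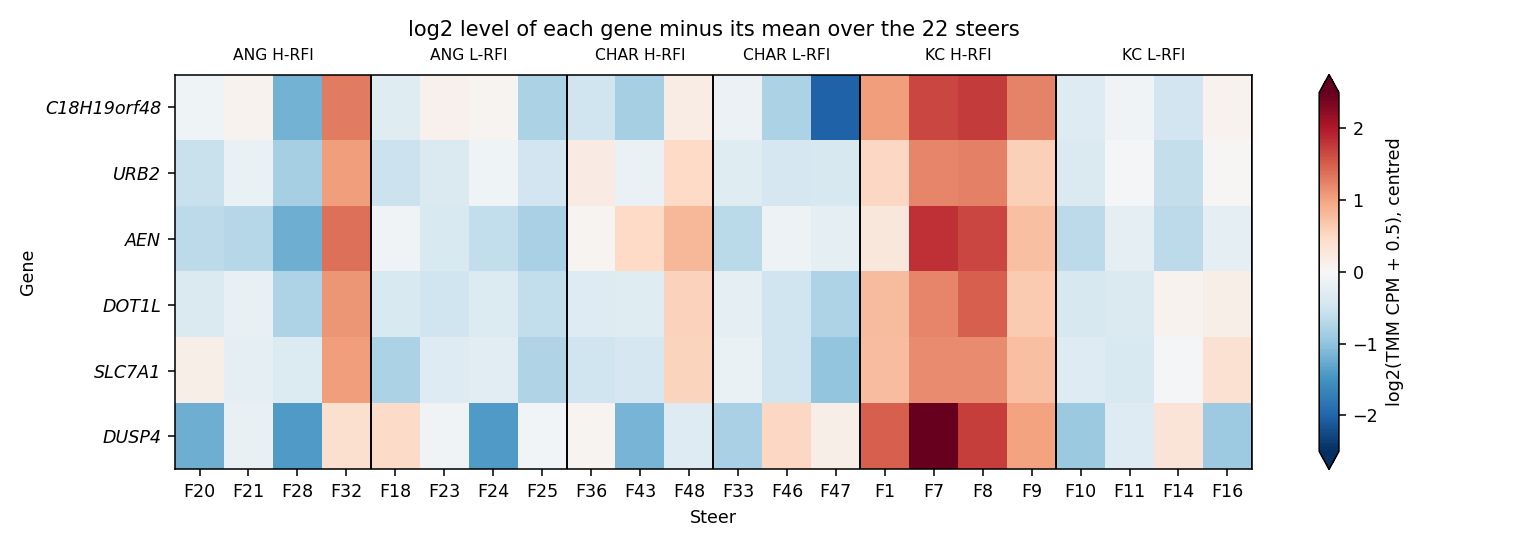
Log2(TMM CPM + 0.5) of each gene (rows) minus its mean over the 22 steers, by steer (columns, in breed and RFI groups), from blue (below the mean) to red (above). The 4 KC H-RFI columns and F32 are above the mean in all 6 rows, and F48 is in 5, with DUSP4 following another pattern over the ANG and CHAR steers.

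The 6 genes varied more than most genes within the ANG and CHAR groups, the KC steers being left out of this measure. Their within-group SD of log2 TMM CPM over these 14 steers was 0.49 (URB2 and SLC7A1) to 0.77 (C18H19orf48 and DUSP4). This placed them at the percentiles 91.9 to 98.7 of the 12223 genes above 1 CPM in every steer, whose median was 0.23. F32, with the largest positive deviation for each of the 6 genes, was among the steers used. To describe how the genes varied together apart from breed and RFI, the correlation of their values was taken after subtracting each group's mean, over 22 steers, which share their tissue, library and normalization for all genes, and no p is given. The 10 pairs among C18H19orf48, URB2, AEN, DOT1L and SLC7A1 had Pearson's r from 0.65 to 0.89 (median 0.81) and Spearman's rho from 0.53 to 0.83. DOT1L and SLC7A1 were the closest pair, at an r of 0.89, higher than 99.9% of the correlations of DOT1L with 12222 other genes. In contrast, the 5 pairs with DUSP4 had r from 0.13 with SLC7A1 to 0.55 with AEN (median 0.40).

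In the 8 KC steers, the 10 pairs had r from 0.57 to 0.98, and in the 14 ANG and CHAR steers from 0.62 to 0.92. F32 carried a part of the latter. Over the 13 ANG and CHAR steers without it, r was 0.20 to 0.83 for the 10 pairs, with 0.83 for DOT1L and SLC7A1, 0.81 for C18H19orf48 and DOT1L, and 0.20 for URB2 and AEN. For the pairs with DUSP4 it was -0.32 to 0.40. When the 2 steers with the most extreme values of the first gene of a pair were left out, r was 0.31 to 0.81 for the 10 pairs and -0.12 to 0.37 for those with DUSP4. AEN with C18H19orf48 and AEN with SLC7A1 had r of 0.31 and 0.39 then, against 0.92 and 0.60 in the 8 KC steers alone.

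**Figure D4:**
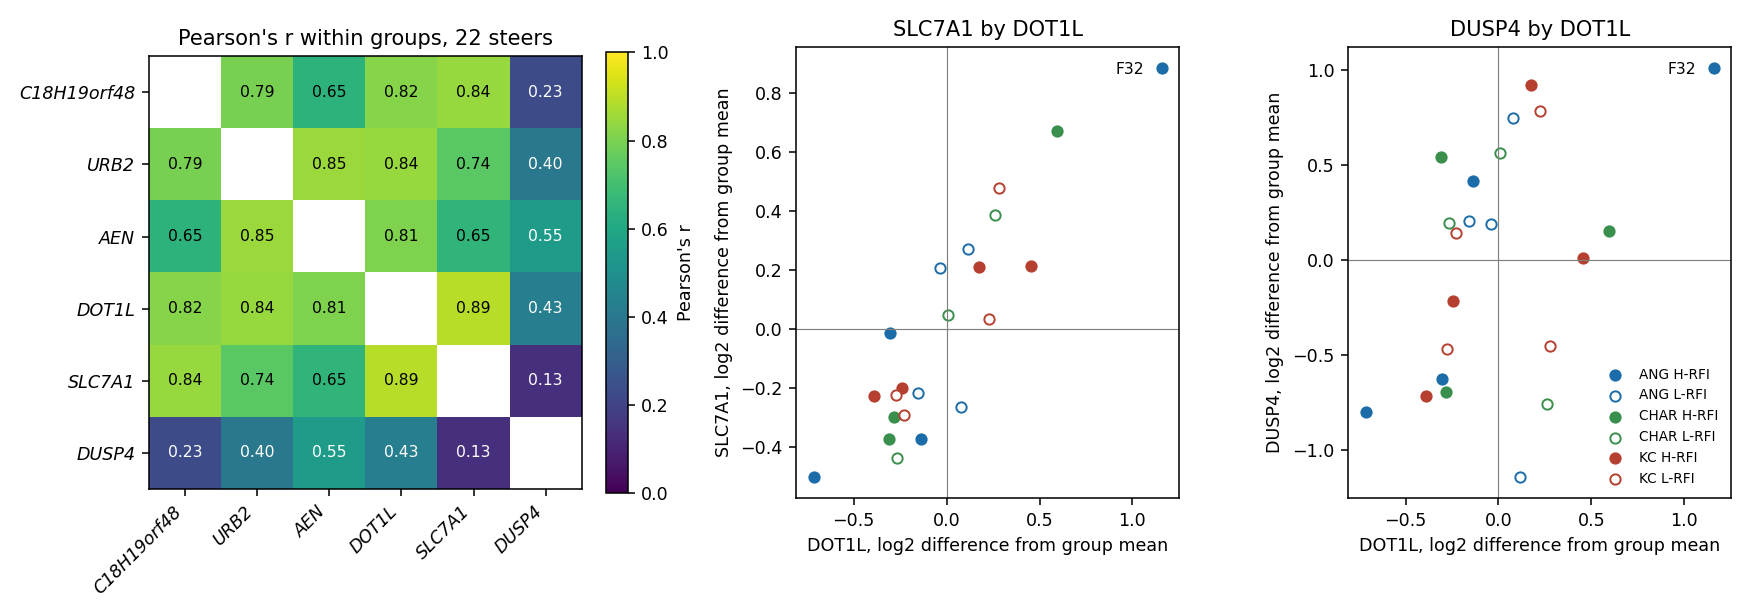
Pearson's r of each pair of the 6 genes over 22 steers after subtracting group means (left, colour and number), and the log2 difference from the group mean of SLC7A1 (middle) and DUSP4 (right) against that of DOT1L, with 1 point per steer coloured by breed. The points of SLC7A1 follow those of DOT1L (r of 0.89), F32 being the extreme, whereas those of DUSP4 scatter (r of 0.43).

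The genes with the most similar within-group pattern were sought among the 158 genes that had a symbol, since the other genes above 1 CPM in every steer had an identifier alone. These symbols come from the lists of DE genes that the study made on these steers, so which names could appear was set by the study. PPAN, a nucleolar ribosome biogenesis factor, was closest to C18H19orf48 with an r of 0.94 (0.91 without F32) and the highest of all 12222 genes, named or not, followed by SLCO4A1 (0.85) and SLC7A1 (0.84). URB2 was closest to DDX51, an RNA helicase of ribosome biogenesis (0.93), the coactivator gene PPRC1 (0.92) and RRP9, a component of the snoRNP that processes ribosomal RNA (0.92). AEN was closest to RRP9 (0.91, the highest of all 12222), DDX51 (0.88) and PPRC1 (0.87). DOT1L followed SLC7A1 (0.89), the syndecan gene SDC4 (0.88) and the tubulin gene TUBB6 (0.87), and SLC7A1 followed the integrin gene ITGA5 (0.93), DOT1L (0.89) and C18H19orf48 (0.84). For DUSP4 the closest was SREBF1 (0.65), a transcription factor of lipid synthesis, and the sterol synthesis gene SQLE had an r of 0.59, SREBF1 ranking 38 among all 12222 genes. All of these named genes were in the study's KC list. No gene reached an r of 0.8 with DUSP4, whereas 40 (SLC7A1) to 116 (URB2) of 12222 genes did with the other 5. These counts include F32 and were not repeated without it. Without F32, the r of these 5 with their named genes ranged from 0.74 (AEN and DDX51) to 0.91 (C18H19orf48 and PPAN). AEN then had 0.80 with RRP9 and 0.75 with PPRC1, and DUSP4 had 0.67 with SREBF1 and 0.55 with SQLE.

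Lists of related genes were prepared on ribosome biogenesis, p53 targets, the partners of DOT1L, amino acid transporters, and MAP kinase phosphatases and genes induced by ERK. Of their 160 genes, 7 could be matched to an identifier, namely 4 of 66, 1 of 25, 0 of 16, 0 of 24 and 2 of 29. The others were not analysed here, and with so few members no statement about a list is possible. All 7 had been picked by the study for differing in KC, so their KC values are not independent evidence of a direction. PPAN, DDX51, UTP4 and RRP9, all factors of ribosome biogenesis, had KC log2FC of -1.22, -1.08, -1.02 and -1.21 (SE 0.25, 0.25, 0.25 and 0.30). FOSL1, a transcription factor induced by ERK, was at -3.32 (SE 0.72) with 0 to 129 counts per steer, and ERRFI1, an inhibitor of the EGF receptor, at -1.14 (SE 0.28). SESN1, a p53 target, was at 1.10 (SE 0.38), opposite in sign to AEN. In ANG 0, in CHAR 1 and in both breeds together 1 of the 6 tested genes passed an unadjusted p of 0.05, DDX51 in both cases. Its log2FC was -0.44 (SE 0.16, unadjusted p = 0.0288, adjusted p = 0.947) in CHAR and -0.54 (SE 0.19, unadjusted p = 0.0136, adjusted p = 0.998) in both, which includes the CHAR steers. Of all genes, 3.14% in ANG, 2.21% in CHAR and 2.98% in both were lower in L-RFI at that p. No gene of the lists was called in ANG or CHAR.

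Values that moved with the KC groups were as follows. Libraries held 10491712 to 12426133 reads on genes in KC H-RFI and 8033008 to 10822339 in KC L-RFI steers, with some overlap. The part of this depth in the differences of the 6 genes was not tested. The share of uniquely aligned reads counted on genes was 39.5 to 41.4% in KC H-RFI and 37.2 to 38.5% in KC L-RFI steers, without overlap, and its part in the differences of the 6 genes was not tested. In the ANG and CHAR steers this share ranged from 34.3 to 42.5%. Without the 3 KC steers with few ambiguous reads, an alternative also chosen after seeing the data, the KC log2FC was -1.37 for C18H19orf48, -0.83 for URB2, -1.43 for AEN, -0.997 for DOT1L, -0.88 for SLC7A1 and -2.54 for DUSP4, so that URB2, DOT1L and SLC7A1 no longer reached the study's limit of 1. Of 52 markers of other cell types and of adipocytes, 4 could be matched, among them TTN and NEB of skeletal muscle and ACTA2 of smooth muscle, and none of the 9 adipocyte markers, so the label of the tissue was not checked. Both muscle genes were high in a single KC L-RFI steer, F11 (2352 TMM CPM for TTN and 200.03 for NEB, against at most 271 and 7.30 in all other steers), whose values of the 6 genes lay between those of other KC L-RFI steers for 5 genes and lowest of the group for SLC7A1. ACTA2 (140 to 296 in KC H-RFI, 88.8 to 178 in KC L-RFI) overlapped between the KC groups.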

How the data were processed

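Subcutaneous backfat of 22 steers was sequenced by the authors as rRNA-depleted, stranded total RNA with paired reads of 100 bp. After trimming, the authors used TopHat2 2.0.9 for alignment to UMD3.1 and SAMtools 1.1 for sorting, and deposited raw counts per gene from HTSeq 0.6.1, per the submitters' processing notes and the methods of the study. The annotation version and the strand setting are not given in the sources used here. Of 24616 genes, 242 had a symbol from the study's own DE lists, and RefSeq (ARS-UCD2.0) was used for names and overlaps only, so no coordinates or sequences are given. On average 59.7% of uniquely aligned reads fell on no gene.

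Each fit used edgeR 4.0.16 (R 4.3.3, quasi-likelihood test, TMM) on genes that exceeded 1 CPM in 50% or more of its steers, with the Benjamini-Hochberg method over all genes tested. A call required an adjusted p below 0.1 and an absolute log2FC of at least 1, as in the study, whose methods name edgeR but no test. Standard errors were the log2FC divided by the square root of F. Levels and correlations used TMM factors of all 22 steers, and correlations log2(TMM CPM + 0.5). Alternatives were DESeq2 1.42.0, edgeR's exact test, other size factors and filters, RFIfat as a regressor, a fit of all steers or of breed alone, and leaving out each steer. On data drawn with 200 changed genes, recovery was counted by the adjusted p alone, without the limit on log2FC. For changes of 1 on the log2 scale, it was 63.5% in ANG and 56.5% in CHAR. It was 83.5% in both breeds together and 79.0% in KC against CHAR. The median estimates, 0.97 to 1.01, lay near the limit of 1. These shares therefore overstate how often a call under the full rule would be made. They describe the changed genes as a set, whereas the genes described here varied more than most genes within groups. Recovery for genes that vary this much was not tested. With 200 changed genes, the Benjamini-Hochberg method also sets a less strict limit on p than where few genes change. In the fits of the data, the smallest adjusted p of all genes was 0.333 in ANG, 0.788 in CHAR and 0.998 in both breeds. The shares for these fits therefore overstate recovery for this reason too. A count of 3 equals 0.241 to 0.373 CPM, for counting error only. The steers are separate animals.

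The 6 genes and the gene lists were chosen with earlier results of these data known. Besides the 6 genes, up to 3 genes of each list with the smallest p in KC and the 3 named genes with the highest r with each of the 6 were named, apart from results that are not reported here. Python 3.11.15, numpy 2.4.6, pandas 2.3.3 and matplotlib 3.10.9 were used outside R.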

Additional observations from a re-analysis of the deposited data

Results flagged for a closer look

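AEN in the ANG H-RFI group had 1 steer far from the others, F32 at 13.1 TMM CPM. Its gap to the next steer was 0.906 of the range of the group. This was 1 of 24 groups of 4 steers examined for the 6 genes, and chance flags about 1 in 20 such groups.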

How the results depend on the processing

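No paired analysis was possible because the labels number every steer separately and the groups share no animals. None of the 6 genes was called in ANG, in CHAR, in both together or in CHAR against ANG under any alternative run. Members called in KC against ANG, a count that holds the KC H-RFI steers that chose the genes, were 0, and 1 with CPM above 1 in every steer and 1 with DESeq2, both times DUSP4. Leaving out 1 steer gave 0 to 2, with 2 without F32 (AEN at a log2FC of 1.18 and DUSP4 at 1.26) and 1 without F9. In KC against CHAR they were 1, 2 with breed alone in the model (C18H19orf48 and DUSP4 at 1.32), and 1 to 2 without 1 steer, the 2 being without F9. Pathway list genes lower in L-RFI at an unadjusted p below 0.05 were 0 in ANG, but 1 with no filter on low counts, 1 with the edgeR exact test, 1 in a fit of all 22 steers and 0 to 1 without 1 steer. In CHAR they were 1, and 3 with no filter, 0 in the fit of all steers and 0 to 2 without 1 steer. In both breeds they were 1, and 3 with no filter, 2 with DESeq2, 0 with RFIfat as regressor and 1 to 3 without 1 steer. The share of all genes passing was not counted under these alternatives, so nothing is read from these counts. In KC, where the study picked the list genes, the 1 gene higher in L-RFI (SESN1) became 0 to 1, the 0 being without F11. Without 1 steer, the ANG log2FC ranged from -0.80 to 0.12 for C18H19orf48, -0.67 to 0.13 for URB2 and -0.91 to 0.48 for AEN, all 3 being positive only without F32. CHAR against ANG ranged from -0.053 to 0.35 for URB2, -0.24 to 0.22 for DOT1L, -0.36 to 0.051 for SLC7A1 and -0.060 to 0.34 for DUSP4. Without the steers with few ambiguous reads, a choice made after seeing the data, CHAR against ANG was -0.13 for URB2, DUSP4 in ANG was -0.45, and in KC C18H19orf48 was -1.37 and PPAN -0.82. The causes were not tested. With 3 or 4 steers a group, differences near 1 on the log2 scale could be missed.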
